A study of Mus musculus with 16 samples.

Results

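Spleen dendritic cells (DCs) sorted under the label Dec205 were compared between the genotypes CKO and WT, with 2 libraries of each. These 4 libraries, of 16 in the series, were chosen by their subset and genotype labels. Of 13790 genes with enough counts to test, the 13317 on autosomes are described. The other 12 libraries hold the subsets pDC, Esamlo and Esamhi in the same 2 genotypes. They entered the model that estimates the spread of each gene, and they serve as a comparison at the end. The series text calls the CKO cells deficient in Etv6, and WT is the control genotype. What drives the deletion, the strain and the age of the mice are not stated in the labels. The labels also leave unstated whether both libraries of a genotype derive from different mice. The p-values therefore rest on differences among these libraries only, which may be technical.

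Etv6 is a transcription factor of the ETS family that binds DNA through its ETS domain and represses many of its targets together with corepressors. The DEC205 receptor, encoded by Ly75, is an endocytic lectin carried in the spleen by type 1 classical DCs (cDC1). These cells depend on Irf8 and Batf3, take up dead cells, present their antigens on MHC class I to CD8 T cells, and secrete interleukin-12. On maturation, DCs activate NF-kB, raise costimulatory molecules and the chemokine receptor Ccr7, and move towards T cell zones.

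The markers of the label were present in all 4 libraries. Xcr1, the chemokine receptor that marks cDC1, was at 1276 and 1228 CPM (counts scaled to a common library size) in WT and at 1547 and 1786 CPM in CKO. Clec9a, the dead-cell receptor of cDC1, was at 228 and 215 CPM in WT and at 197 and 291 CPM in CKO, so its groups overlapped. Ly75 itself was at 203 and 238 CPM in WT and at 143 and 157 CPM in CKO, and neither this difference (log2 fold change -0.55, SE 0.33, adjusted p = 0.358) nor those of Xcr1 (adjusted p = 0.499) and Clec9a (adjusted p = 0.91) passed the test. Of the 4 label markers, Cd8a alone was called: it was at 781 and 699 CPM in WT and at 69.2 and 70.7 CPM in CKO (log2 fold change -3.40, SE 0.32, adjusted p = 4.25e-05). The summed level of 30 cDC1 identity genes was 25170 and 25250 CPM in WT against 24580 and 29160 CPM in CKO. Etv6, the targeted gene, was at 337 and 375 CPM in WT and at 205 and 219 CPM in CKO. It fell by 0.75 on the log2 scale (SE 0.10, adjusted p = 0.000996), which checks the labels only partly, because a gene-level count can persist when some exons are removed.

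The 4 libraries held between 14434287 and 19727827 counts, within the 14434287 to 20709265 of the whole series. Sex differed with genotype: Xist, the RNA that silences 1 X chromosome in females, was at 0 and 0.0676 CPM in WT and at 125 and 114 CPM in CKO, and the Y-linked Ddx3y was at 104 and 149 CPM in WT and at 1.95 and 0.0648 CPM in CKO. Effects of sex on autosomal genes cannot be told apart from those of genotype. The summed level of 15 B cell markers was 310.1 and 320.3 CPM in WT, but 1220 CPM in CKO replicate 1 and 598.1 CPM in CKO replicate 2. Summed over 17 monocyte genes it was 4859 and 4278 CPM in WT and 5991 and 7416 CPM in CKO. The 12 neutrophil markers summed to 7.07 to 14.5 CPM in every library. In sorted bulk RNA, fewer cells of a type and less RNA per cell cannot be told apart.

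Genes were called higher or lower with edgeR's quasi-likelihood test at a Benjamini-Hochberg adjusted p under 0.05 over all tested genes. In CKO, 448 autosomal genes were higher (3.36% of those tested) and 444 lower (3.33%), together 6.7%. The higher and lower calls differed in kind. The higher genes changed more, by a median of 2.72-fold, with 292 at 2-fold or more and 163 at 4-fold or more. The lower genes changed by a median of 1.77-fold, and 266 of them by less than 2-fold. The lower genes were also the more abundant: their median level was 5.98 log2 CPM, against 4.23 log2 CPM for the higher genes. Among the 1491 genes at 7 log2 CPM or more, 143 were lower (9.59%) and 45 higher (3.02%), whereas among the 2340 genes between 0 and 3 log2 CPM, 36 were lower (1.54%) and 100 higher (4.27%). The median standard error was 0.113 in the first of these bins and 0.613 in the second. Of the calls under 2-fold, 120 of 156 higher and 237 of 266 lower ones lay at 5 log2 CPM or more. Both CKO libraries lay beyond both WT libraries in 2651 autosomal genes upwards (19.9%) and in 2823 downwards (21.2%), whether called or not. The genotypes were separate in all 448 higher and in 442 of the 444 lower genes. Where a called gene is described below as not overlapping, this therefore adds little to its call.

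**Figure D1:**
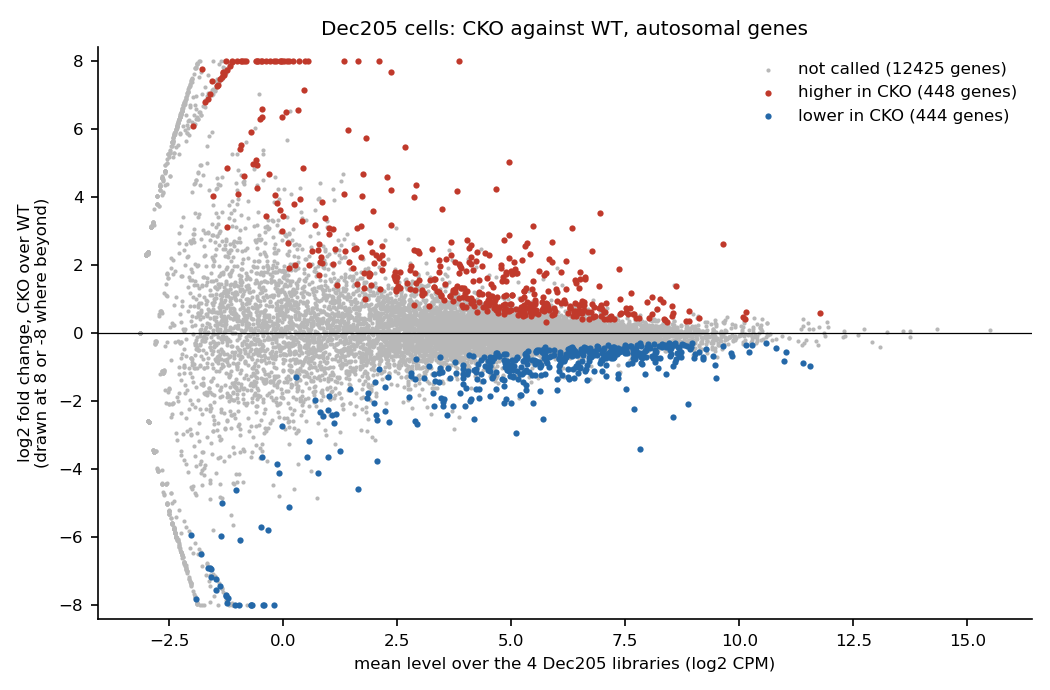
Log2 fold change of CKO over WT in Dec205 against the mean level over the 4 libraries in log2 CPM, 1 point per autosomal gene, with the 448 higher genes in red and the 444 lower genes in blue. Lower calls lie mostly on the right, at small changes of abundant genes, and higher calls spread over all levels with larger changes.

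The calls rest on few libraries. Of the 892 called genes, 306 (178 higher and 128 lower) were called in the same direction with each of the 4 libraries left out in turn, and 75 were called in none of those fits. Without WT replicate 1 the counts were 755 higher and 517 lower, and without WT replicate 2 they were 311 higher and 251 lower. With only the 4 Dec205 libraries in the model they were 74 and 50, and 115 of the 892 genes kept their call, so most calls draw on the spread estimated over all 16 libraries. Called genes named from here on kept their call in all 4 leave-one-out fits, except where the adjusted p without a named library is given. With only the 4 Dec205 libraries in the model, however, 66 of the called genes named in this text lost their call. In that model 1 named gene that is not called here was called. Counts in gene lists are to be read beside the 3.36% higher and 3.33% lower of all tested autosomal genes. A list near these shares is no result about the list, and its named genes are then single genes.

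Interferon-related genes rose in several families. The lists with the largest share of members called higher were the PYHIN, Schlafen and OAS genes. With only the 4 Dec205 libraries in the model, higher genes numbered 3 in the PYHIN, 1 in the Schlafen and 2 in the OAS list. In the Schlafen family, whose members restrict viral RNA and growth of leukocytes, 6 of 9 tested genes were higher and none lower, with a median log2 fold change of 1.90, against 0.00 over all tested autosomal genes. Slfn1 was at 1.97 and 1.35 CPM in WT and at 42.4 and 25.2 CPM in CKO. Slfn5 was at 52.4 and 49.1 CPM in WT and at 104 and 96.7 CPM in CKO. In both genes every CKO library exceeded every WT library, and Slfn5 rose by 0.98 on the log2 scale (SE 0.16, adjusted p = 0.00324). Slfn8 rose from 5.01 and 10.9 CPM to 32 and 27.6 CPM (log2 fold change 1.90, SE 0.27, adjusted p = 0.00123). Slfn2 rose from 140 and 146 CPM to 266 and 210 CPM (adjusted p = 0.0108, and 0.0665 without CKO replicate 1). Slfn8, Slfn10-ps, Slfn2, Slfn1 and Slfn4 are 5 neighbouring tested genes, all higher, at chr11:83002125-83190216 (GRCm38).

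The PYHIN genes encode sensors of cytosolic and nuclear DNA, of which Aim2 assembles an inflammasome. Of 9 tested, 6 were higher and none lower, with a median log2 fold change of 0.73. Aim2 was at 45.4 and 34.1 CPM in WT and at 77 and 70.3 CPM in CKO (log2 fold change 0.89, SE 0.15, adjusted p = 0.00347). Ifi203 rose from 11.7 and 13.7 CPM to 37.5 and 40 CPM (log2 fold change 1.61, SE 0.12, adjusted p = 1.25e-05). For both genes the 2 genotypes did not overlap. Ifi205, at 754 and 778 CPM in WT against 669 and 730 CPM in CKO (adjusted p = 0.742), did not pass, nor did Mnda, at 284 and 290 CPM in WT against 327 and 341 CPM in CKO (adjusted p = 0.458). Aim2, BC094916, Pydc4, Pyhin1 and Pydc3 formed another run of 5 neighbouring higher genes, at chr1:173349547-173698393. Pydc3 and Pydc4 are near-identical copies, so their separate values are uncertain. Casp1, the protease that inflammasomes activate, rose from 34 and 40 CPM to 56.6 and 62 CPM (log2 fold change 0.68, SE 0.14, adjusted p = 0.0104), while Mefv, which encodes the inflammasome sensor pyrin, fell from 49 and 68.8 CPM to 11.6 and 19.3 CPM (log2 fold change -1.94, SE 0.24, adjusted p = 0.000893).

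Among the OAS genes, which make the second messenger that activates RNase L, 5 of 9 were higher and none lower, with a median log2 fold change of 2.43. Oas2 was at 1.9 and 0 CPM in WT and at 20.8 and 25.9 CPM in CKO, and Oas1g at 1.37 and 0.812 CPM in WT and at 14.5 and 11.7 CPM in CKO. The WT levels were near the limit of counting, and no WT library reached any CKO library. Oasl1 did not pass the test, with 34.9 and 29.4 CPM in WT against 16.7 and 18.4 CPM in CKO (adjusted p = 0.155). Reads of the Oas1 paralogs cannot be separated with certainty.

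A wider list of 55 interferon-stimulated genes held 14 higher and 4 lower genes, with a median log2 fold change of 0.33. These counts were 5 and 1 with only the 4 Dec205 libraries in the model. Ifitm3, which blocks virus entry at endosomal membranes, was at 86.1 and 86 CPM in WT and at 265 and 366 CPM in CKO (log2 fold change 1.87, SE 0.15, adjusted p = 1.82e-05). Isg20, an exonuclease of RNA, rose from 7.67 and 6.36 CPM to 43.8 and 41 CPM (log2 fold change 2.60, SE 0.24, adjusted p = 3.87e-05). Ifi27 rose from 14.7 and 13.6 CPM to 38.4 and 38.9 CPM (log2 fold change 1.45, SE 0.13, adjusted p = 3.51e-05). In all of these both CKO libraries stood clear of both WT libraries. Ifit2, Ifit3, Ifit1bl1 and Ifit3b, 4 adjacent genes at chr19:34550550-34662981 whose products bind foreign RNA, were all higher. Ifit2 rose from 20 and 12 CPM to 56.9 and 54.5 CPM (log2 fold change 1.80, SE 0.23, adjusted p = 0.000491). Ifit3 and Ifit3b are close paralogs that may share reads.

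Not every interferon-inducible gene followed. Of the 23 IRG and GBP GTPases, which attack the vacuoles of intracellular microbes, 5 were higher and 3 lower. Gvin1, a very large interferon-induced GTPase, rose from 31.1 and 43.1 CPM to 149 and 111 CPM (log2 fold change 1.80, SE 0.21, adjusted p = 0.000248). The 3 that fell are neighbours on chromosome 5 (chr5:105012513-105139586). Gbp9 was at 85.3 and 96.1 CPM in WT and at 21.8 and 34.3 CPM in CKO (log2 fold change -1.70, SE 0.22, adjusted p = 0.000583). Gbp8 fell from 54.6 and 61.5 CPM to 15.2 and 30.5 CPM (log2 fold change -1.35, SE 0.23, adjusted p = 0.00357). Gbp4 fell from 110 and 134 CPM to 64.3 and 56.7 CPM (log2 fold change -1.01, SE 0.14, adjusted p = 0.000853). Paralogs of this cluster are alike, so a share of their reads may be exchanged among them. Epsti1 fell from 500 and 526 CPM to 297 and 302 CPM (log2 fold change -0.78, SE 0.10, adjusted p = 0.000583), and Samhd1, a nucleotide hydrolase that limits retroviruses, from 462 and 461 CPM to 347 and 350 CPM (log2 fold change -0.40, SE 0.08, adjusted p = 0.00752). Adar, the enzyme that edits adenosines in double-stranded RNA, fell from 122 and 129 CPM to 67.5 and 73 CPM (adjusted p = 0.014, 0.0675 without WT replicate 2 and 0.0798 without CKO replicate 1). Epsti1 and Adar were named after their values were seen, as were Gbp4, Pyhin1, Ifit2, Ifi27, Slfn2 and Slfn5.

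Of 33 genes of interferon receptors and JAK-STAT signalling 3 were higher and 3 lower, against 6.7% of all tested genes in either direction. These counts were 1 and 1 without CKO replicate 1 or without WT replicate 2, 3 and 2 without WT replicate 1, and 2 and 6 without CKO replicate 2. Stat2, a subunit of the factor that carries the type I interferon signal to DNA, rose from 78.4 and 63.6 CPM to 110 and 115 CPM (log2 fold change 0.66, SE 0.12, adjusted p = 0.00667, and 0.0605 without WT replicate 2). Of 9 interferon regulatory factors, Irf7 was higher and Irf1 lower. Irf7 was at 176 and 160 CPM in WT and at 244 and 256 CPM in CKO (adjusted p = 0.0363), and Irf1 at 502 and 548 CPM in WT and at 406 and 400 CPM in CKO (adjusted p = 0.0168). Neither call held throughout: without WT replicate 2 the adjusted p was 0.159 for Irf7 and 0.108 for Irf1, without CKO replicate 1 it was 0.0732 and 0.0564, and without CKO replicate 2 it was 0.0905 and 0.0553.

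**Figure D2:**
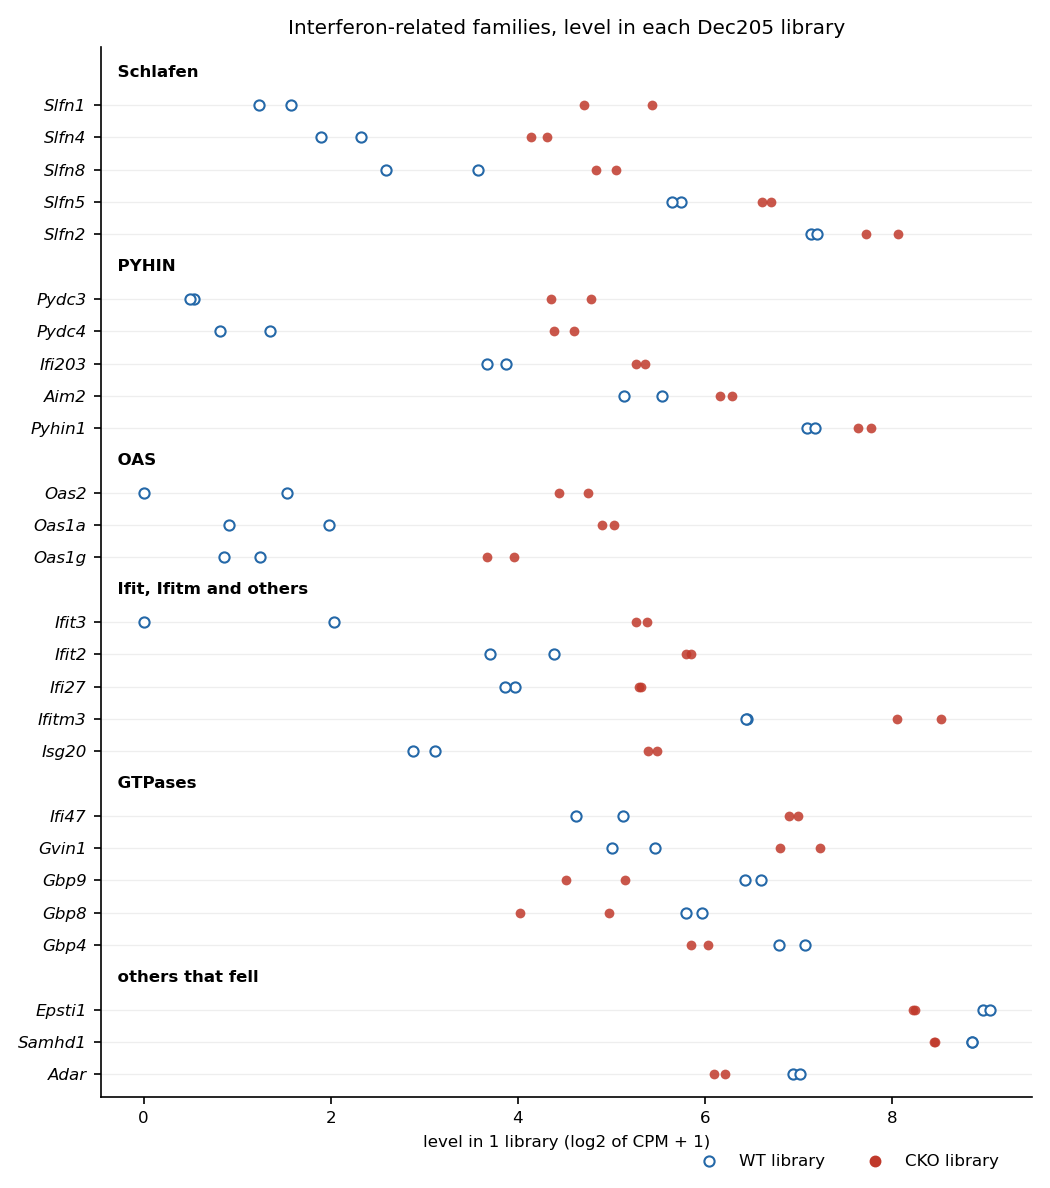
Level of 26 interferon-related genes in each Dec205 library, as log2 of CPM + 1, with open blue circles for the 2 WT libraries and filled red circles for the 2 CKO libraries. In the Schlafen, PYHIN, OAS and Ifit rows drawn both CKO libraries lie to the right of both WT libraries, and in the rows of Gbp9, Gbp8, Gbp4, Epsti1, Samhd1 and Adar they lie to the left. The rows are picked members and leave out genes that did not pass, such as Ifi205, Mnda and Oasl1.

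The promoters of 3 genes that rose, 1 from each of the Ifit, OAS and Schlafen families, are shown for the motif GAAA, any 2 bases, GAAA, the core of the interferon-stimulated response element, searched on both strands. They were picked only among promoters that hold this motif, so their matches follow from that choice and add no support. Each window runs from 250 bases before the annotated start to 50 after it (RefSeq, GRCm38.p6), 5′ to 3′ on the gene's strand, with matches in capitals (in Ifit3 and Slfn8 they lie on the opposite strand and read as the reverse complement). That of Ifit3 is chr19:34583279-34583578 (plus strand), that of Oas1a chr5:120907476-120907775 (minus strand) and that of Slfn8 chr11:83020761-83021060 (minus strand).

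Ifit3: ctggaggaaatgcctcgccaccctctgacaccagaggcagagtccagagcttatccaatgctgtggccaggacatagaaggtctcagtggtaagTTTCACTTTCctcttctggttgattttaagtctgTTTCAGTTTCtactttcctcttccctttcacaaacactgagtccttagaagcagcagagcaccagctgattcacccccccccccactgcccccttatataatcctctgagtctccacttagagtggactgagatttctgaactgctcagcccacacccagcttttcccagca
Oas1a: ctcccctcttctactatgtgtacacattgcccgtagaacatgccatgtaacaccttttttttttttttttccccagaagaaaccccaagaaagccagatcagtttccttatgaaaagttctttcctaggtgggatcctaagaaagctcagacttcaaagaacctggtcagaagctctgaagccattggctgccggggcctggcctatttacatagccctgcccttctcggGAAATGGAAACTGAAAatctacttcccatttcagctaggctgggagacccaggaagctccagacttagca
Slfn8: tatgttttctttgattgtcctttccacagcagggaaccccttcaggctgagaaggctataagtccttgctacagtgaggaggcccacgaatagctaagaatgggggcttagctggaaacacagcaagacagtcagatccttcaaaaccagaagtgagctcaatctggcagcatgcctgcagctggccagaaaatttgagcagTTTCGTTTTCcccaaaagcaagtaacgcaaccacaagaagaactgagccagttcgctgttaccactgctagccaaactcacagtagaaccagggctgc

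Ifit3 held 2 matches, starting 156 and 122 bases before the start, Oas1a held 2 overlapping ones starting at 20 and 14, and Slfn8 held 1 starting at 48. The motif occurred in 3.33% of the promoters of 10525 tested autosomal genes with an entry. It occurred in 33 of 359 promoters of higher genes (9.19%) and in 10 of 339 of lower genes (2.95%). Within the 5 interferon lists above, 15 of 28 promoters of higher genes held it (53.6%), against 27 of 44 of genes not called (61.4%) and 1 of 4 of lower genes. The ETS motif CCGGAAG, also searched on both strands, was in 17.9% of all these promoters, in 14.5% of those of higher genes and in 11.5% of those of lower genes. A match is a description of the sequence only.

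Genes of NF-kB signalling and of DC maturation were lower or not called. Of 30 NF-kB subunits and regulators, 8 were lower and none higher, with a median log2 fold change of -0.29. Relb, the subunit of the alternative pathway that cDCs need, was at 394 and 369 CPM in WT and at 205 and 220 CPM in CKO (log2 fold change -0.85, SE 0.10, adjusted p = 0.000383). Traf1, an adaptor of TNF receptors and itself an NF-kB target, fell from 651 and 638 CPM to 414 and 435 CPM (log2 fold change -0.60, SE 0.09, adjusted p = 0.00144). Birc2, a ubiquitin ligase that restrains the alternative pathway, fell from 208 and 185 CPM to 136 and 103 CPM (log2 fold change -0.71, SE 0.13, adjusted p = 0.00756). The 2 genotypes did not overlap in any of these 3 genes. The inhibitor Nfkbia, at 757 and 731 CPM in WT against 616 and 610 CPM in CKO, did not pass (adjusted p = 0.302). The count of lower genes in this list was 5 without WT replicate 1, 5 without WT replicate 2, and 1 with only the 4 Dec205 libraries in the model. Beside Birc2 on chromosome 9, Birc3 was also lower (adjusted p = 0.0186, 0.109 without WT replicate 1 and 0.0945 without CKO replicate 1), and the third neighbour of this run, Tmem123, a surface mucin of migratory DCs, fell from 2676 and 2721 CPM to 1590 and 1446 CPM (log2 fold change -0.83, SE 0.09, adjusted p = 9.42e-05).

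Of 42 genes of costimulation and maturation, 13 were lower and none higher, with a median log2 fold change of -0.45. Apol7c, an apolipoprotein L of cDC1 that acts on membranes of phagosomes, fell from 1086 and 858 CPM to 216 and 239 CPM (log2 fold change -2.09, SE 0.21, adjusted p = 8.94e-05). H2-M2, a nonclassical class I gene of mature DCs, fell from 81.3 and 54.6 CPM to 23.8 and 23.4 CPM (log2 fold change -1.52, SE 0.27, adjusted p = 0.0068). Laptm4b, a lysosomal membrane protein, fell from 286 and 234 CPM to 93.8 and 113 CPM (log2 fold change -1.33, SE 0.15, adjusted p = 0.000234). Ccr7, the receptor for migration to T cell zones, fell from 3687 and 3731 CPM to 1976 and 2026 CPM (log2 fold change -0.89, SE 0.18, adjusted p = 0.00997, and 0.052 without CKO replicate 1). Each of these had both CKO libraries below both WT libraries. Among the rest of the 13 were Bcl2l14, a member of the Bcl2 family, and Samsn1, a signalling adaptor, named after its value was seen, which fell from 394 and 404 CPM to 241 and 235 CPM (log2 fold change -0.74, SE 0.12, adjusted p = 0.00271). The costimulator Cd40 was at 172 and 171 CPM in WT and at 150 and 117 CPM in CKO (adjusted p = 0.325), and the actin bundler Fscn1 at 1028 and 823 CPM in WT and at 689 and 656 CPM in CKO (adjusted p = 0.355). Apol7a, a neighbour of Apol7c with which it may share reads, fell by 2.05 on the log2 scale (SE 0.42, adjusted p = 0.0113).

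Of 37 MAPK feedback genes, 6 were lower and 2 higher, with a median log2 fold change of -0.20. Dusp2, a nuclear phosphatase of MAP kinases, was at 293 and 257 CPM in WT and at 153 and 168 CPM in CKO (log2 fold change -0.77, SE 0.14, adjusted p = 0.00555). Dusp1, another phosphatase of this family, was at 2687 and 3479 CPM in WT and at 2146 and 2853 CPM in CKO, with overlapping groups (adjusted p = 0.341). Rasgrp2, an exchange factor for Rap1, rose from 2.12 and 1.83 CPM to 5.79 and 7.52 CPM (log2 fold change 1.75, SE 0.23, adjusted p = 0.000534). Gadd45b, a stress sensor that activates MAP kinases, fell from 501 and 476 CPM to 346 and 311 CPM (log2 fold change -0.57, SE 0.11, adjusted p = 0.00667), whereas Fos was at 3476 and 3514 CPM in WT and at 4401 and 4292 CPM in CKO (adjusted p = 0.112).

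Of 100 genes of the actin cytoskeleton and its regulators, 6 were higher and 5 lower, not far from the 3.36% and 3.33% of all tested autosomal genes. The members below are therefore described as single genes. Rac2, the Rac GTPase of blood cells and part of their NADPH oxidase, was at 231 and 204 CPM in WT and at 479 and 388 CPM in CKO (log2 fold change 1.00, SE 0.11, adjusted p = 0.000127). Evl, which promotes actin filament growth, rose from 158 and 146 CPM to 240 and 267 CPM (log2 fold change 0.74, SE 0.11, adjusted p = 0.00211). The GTPase-activating protein Arhgap31 went down, from 121 and 126 CPM to 42.5 and 54.2 CPM (log2 fold change -1.35, SE 0.24, adjusted p = 0.00461), and so did Arhgap22, from 330 and 316 CPM to 186 and 156 CPM (log2 fold change -0.92, SE 0.14, adjusted p = 0.00211). Evl, Arhgap31 and Arhgap22 were named after their values were seen.

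Of 96 orphan and other G protein-coupled receptors 5 were higher and 8 lower, against 3.36% and 3.33% of all tested autosomal genes. Lpar6, a receptor for lysophosphatidic acid, named after its value was seen, fell from 223 and 197 CPM to 94.2 and 81.4 CPM (log2 fold change -1.26, SE 0.21, adjusted p = 0.00294). Outside that list, Ptafr, the receptor for platelet-activating factor, fell from 43.2 and 44.6 CPM to 13 and 11.2 CPM (log2 fold change -1.86, SE 0.17, adjusted p = 3.51e-05). Hrh1, a histamine receptor, was at 3.79 and 2.91 CPM in WT and had no count in CKO, which is at least 39-fold lower when CKO is set to a floor of 3 counts over both libraries. Gpr183, an oxysterol receptor that positions DCs in the spleen, rose from 64.3 and 77.4 CPM to 144 and 120 CPM (log2 fold change 0.90, SE 0.12, adjusted p = 0.000558). The sphingosine receptor S1pr3 had no count in WT and was at 10.8 and 6.22 CPM in CKO, at least 79.2-fold higher. The chemokine receptor Ccr1 likewise went from no count to 7.89 and 1.69 CPM, at least 44.7-fold higher.

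Among cytokine receptors, Csf2rb2, a beta chain of the interleukin-3 receptor, named after its value was seen, rose from 94.7 and 92.7 CPM to 175 and 159 CPM (log2 fold change 0.83, SE 0.09, adjusted p = 0.000195). Of 58 interleukin and growth factor receptors 5 were higher and 3 lower, against 3.36% and 3.33% of all tested autosomal genes. Tnfsf18, the TNF-family ligand of GITR, went from 6.07 and 3.65 CPM in WT to 0 counts in both CKO libraries, or at least 56.6-fold lower.

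Of 41 cell-cell adhesion molecules 5 were lower and 2 higher, against 3.33% and 3.36% of all tested autosomal genes. Pecam1, a homophilic adhesion receptor of endothelium and leukocytes, was at 69 and 68.8 CPM in WT and at 20.7 and 18.5 CPM in CKO (log2 fold change -1.81, SE 0.16, adjusted p = 3.09e-05). Slamf6, a receptor of the SLAM family, named after its value was seen, rose from 15.2 and 18 CPM to 73.3 and 36.4 CPM (log2 fold change 1.73, SE 0.26, adjusted p = 0.00181). Itgb7, the integrin beta chain that pairs with the product of Itgae, rose from 274 and 285 CPM to 449 and 521 CPM (log2 fold change 0.79, SE 0.09, adjusted p = 0.000305). Its partner Itgae was at 206 and 259 CPM in WT and at 528 and 719 CPM in CKO and did not pass (log2 fold change 1.42, SE 0.44, adjusted p = 0.0773). Itgb4, a laminin receptor chain of hemidesmosomes, had no count in WT and was at 9.64 and 6.29 CPM in CKO, at least 74.2-fold higher. Of 25 integrins 4 were higher and 2 lower.

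Tetraspanins, which organise membrane microdomains, were lower in 4 of 18 genes and higher in 1. Tspan3 was at 799 and 750 CPM in WT and at 456 and 450 CPM in CKO (log2 fold change -0.78, SE 0.15, adjusted p = 0.00825). Tspan13, named after its value was seen, fell from 846 and 897 CPM to 512 and 584 CPM (log2 fold change -0.67, SE 0.09, adjusted p = 0.000576). In the list of semaphorins, plexins and ephrins, 5 of 44 genes were higher and 1 lower. Sema4d, a semaphorin of leukocytes, rose from 179 and 200 CPM to 370 and 415 CPM (log2 fold change 1.05, SE 0.10, adjusted p = 5.23e-05). Nrp1, a coreceptor of class 3 semaphorins, rose from 21.1 and 14.7 CPM to 52.8 and 65.5 CPM (log2 fold change 1.73, SE 0.19, adjusted p = 0.000204). Plxnb2, a plexin that binds class 4 semaphorins, fell from 47.4 and 22.9 CPM to 9.07 and 9.21 CPM (log2 fold change -1.94, SE 0.27, adjusted p = 0.000999). Sema5b rose from 0.228 and 0.0676 CPM to 28.2 and 54.6 CPM. Sema4d and Nrp1 were named after their values were seen.

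In the TGF-beta list 1 of 36 genes was higher and 3 were lower, against 3.36% and 3.33% of all tested autosomal genes. Pmepa1, a feedback inhibitor of this pathway, was at 20.3 and 26.9 CPM in WT and at 138 and 162 CPM in CKO (log2 fold change 2.67, SE 0.21, adjusted p = 1.82e-05). Tgfbi, a secreted matrix protein named for its induction by TGF-beta, moved oppositely, from 315 and 341 CPM to 90.7 and 118 CPM (log2 fold change -1.65, SE 0.27, adjusted p = 0.00308). In the Notch list 5 of 38 genes were lower and 1 higher. Notch4 itself fell from 128 and 125 CPM to 16.7 and 27.5 CPM (log2 fold change -2.52, SE 0.40, adjusted p = 0.0026), while Rbpj, the DNA-binding partner of Notch receptors, was at 121 and 142 CPM in WT and at 168 and 191 CPM in CKO (adjusted p = 0.0756).

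Gsr, the reductase that regenerates glutathione, was at 126 and 150 CPM in WT and at 68 and 89.4 CPM in CKO (log2 fold change -0.81, SE 0.14, adjusted p = 0.00345). Ftl1, the ferritin light chain, fell from 2665 and 2368 CPM to 1671 and 1746 CPM (log2 fold change -0.56, SE 0.11, adjusted p = 0.0104, and 0.0546 without CKO replicate 1). The ferritin heavy chain Fth1 was at 1386 and 1442 CPM in WT and at 1644 and 1840 CPM in CKO and did not pass (adjusted p = 0.193). Pfkfb3, which makes the main activator of glycolysis, fell from 457 and 577 CPM to 185 and 266 CPM (log2 fold change -1.20, SE 0.19, adjusted p = 0.00262), and the glucose transporter Slc2a3 went from 4.71 and 2.1 CPM to 0.102 and 0 CPM. In glycolysis 4 of 29 genes were lower and 2 higher. Cyp51, an enzyme of cholesterol synthesis, fell from 86 and 97.7 CPM to 45.1 and 49 CPM (log2 fold change -0.96, SE 0.17, adjusted p = 0.00559). The cholesterol list held 0 higher and 2 lower genes of 25 tested.

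Of 25 genes of eicosanoid metabolism 4 were higher and none lower. Tbxas1, the thromboxane synthase, was at 48.7 and 49.3 CPM in WT and at 155 and 188 CPM in CKO (log2 fold change 1.80, SE 0.32, adjusted p = 0.00555). Cyp4f18, an enzyme of leukotriene breakdown, rose from 1.59 and 6.09 CPM to 24.1 and 15.3 CPM (log2 fold change 2.34, SE 0.38, adjusted p = 0.00303). Odc1, the first enzyme of polyamine synthesis, rose from 125 and 114 CPM to 209 and 266 CPM (log2 fold change 0.99, SE 0.15, adjusted p = 0.00204).

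Of 42 lysosomal genes 3 were higher and 2 lower, against 3.36% and 3.33% of all tested autosomal genes. Ctsc, the cathepsin that activates granule proteases, rose from 291 and 315 CPM to 462 and 451 CPM (log2 fold change 0.59, SE 0.07, adjusted p = 0.000476), and Ctsa from 137 and 137 CPM to 205 and 197 CPM (log2 fold change 0.56, SE 0.08, adjusted p = 0.000924). Lamp1, a main glycoprotein of the lysosomal membrane, fell from 550 and 593 CPM to 421 and 402 CPM (log2 fold change -0.47, SE 0.09, adjusted p = 0.00696). Outside this list, Gm2a, the activator protein for ganglioside breakdown, had the largest difference in CPM of all lower genes, from 4242 and 4214 CPM to 2010 and 2281 CPM (log2 fold change -0.98, SE 0.07, adjusted p = 1.25e-05). Sqstm1, an autophagy receptor, fell from 1184 and 1024 CPM to 719 and 759 CPM (log2 fold change -0.58, SE 0.09, adjusted p = 0.00191). The autophagy list held 1 higher and 3 lower genes of 33 tested.

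Of 41 class I genes 1 was higher and 2 lower, but 0 lower without CKO replicate 1 or without WT replicate 2, and 2 higher without CKO replicate 2. Psmb10, an immunoproteasome subunit, rose from 126 and 118 CPM to 173 and 172 CPM (log2 fold change 0.51, SE 0.09, adjusted p = 0.00552), while H2-D1 was at 5460 and 4987 CPM in WT and at 4830 and 5068 CPM in CKO (adjusted p = 0.544).

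**Figure D3:**
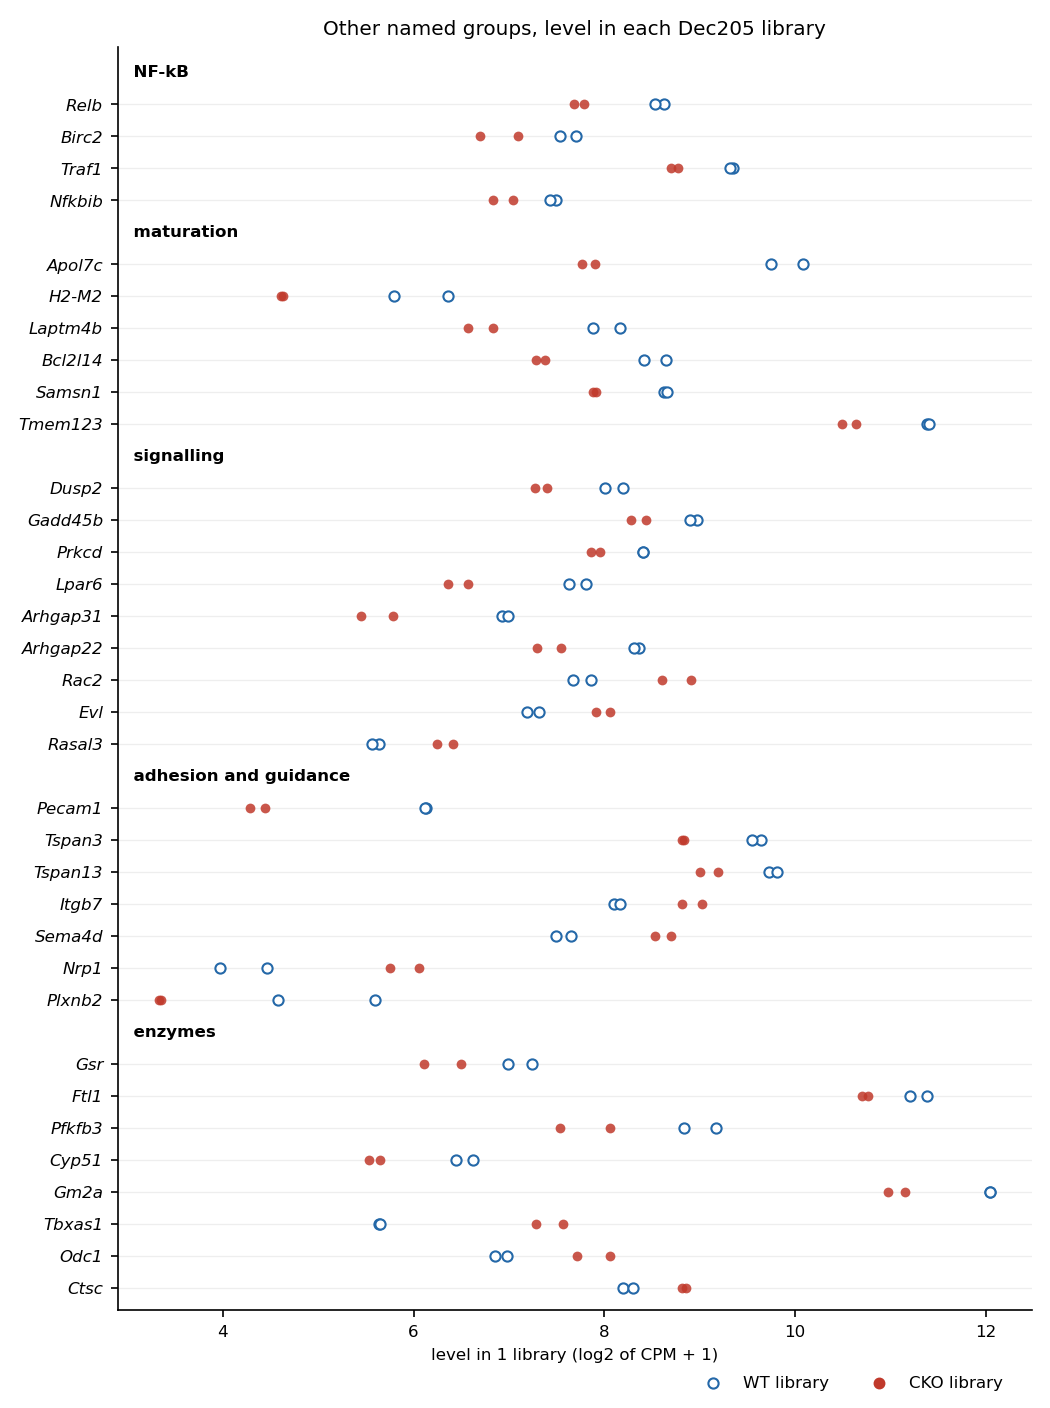
Level of 34 genes from the NF-kB, maturation, signalling, adhesion and enzyme groups in each Dec205 library, as log2 of CPM + 1, with open blue circles for WT and filled red circles for CKO. Every NF-kB and maturation row drawn has both CKO libraries to the left of both WT libraries, while rows such as Rac2, Sema4d, Nrp1, Tbxas1 and Ctsc have them to the right. The rows are picked members, and 22 of the 30 NF-kB and 29 of the 42 maturation genes were not called.

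The transcription factors that define cDC1 were not called. Irf8 was at 3837 and 3609 CPM in WT and at 4027 and 4398 CPM in CKO (log2 fold change 0.18, SE 0.10, adjusted p = 0.309). Id2 was at 2204 and 2407 CPM in WT and at 2086 and 2113 CPM in CKO (adjusted p = 0.723), and Batf3, named after its value was seen, at 160 and 135 CPM in WT and at 100 and 104 CPM in CKO (adjusted p = 0.258). Of 53 DC transcription factors 5 were higher and 3 lower, against 3.36% and 3.33% of all tested autosomal genes. Runx2, a factor of pDC exit from bone marrow, rose 8.8-fold, from 11 and 19.5 CPM to 111 and 159 CPM. Its relative Runx1 fell from 81.4 and 101 CPM to 46.2 and 61.7 CPM (log2 fold change -0.76, SE 0.14, adjusted p = 0.00768, and 0.0585 without WT replicate 2), and was named after its value was seen. Sox4 fell from 13.1 and 12.6 CPM to 2.77 and 4.28 CPM (log2 fold change -1.87, SE 0.23, adjusted p = 0.000335). Of 17 ETS factors, 3 were higher and Etv6 alone was lower. The higher count was 1 without CKO replicate 1 or without WT replicate 2, and leaving out CKO replicate 2 gave 4 lower ones, and leaving out CKO replicate 1 or WT replicate 1 gave 2. Etv5 rose from 1.37 and 2.57 CPM to 11.2 and 7.2 CPM (log2 fold change 2.22, SE 0.37, adjusted p = 0.00327). Spi1, the ETS factor PU.1, was at 792 and 707 CPM in WT and at 642 and 666 CPM in CKO and did not pass (adjusted p = 0.148).

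Genes typical of other blood cells were also called. Of 31 pDC identity genes 10 were higher and 2 lower, and of 17 monocyte genes 5 were higher and 2 lower. The summed level of the pDC genes was 1478 and 1428 CPM in WT and 2060 and 1944 CPM in CKO. Plac8, a small protein of pDCs, monocytes and B cells, was at 308 and 340 CPM in WT and at 1844 and 2117 CPM in CKO (log2 fold change 2.61, SE 0.13, adjusted p = 1.21e-06). Of 9 Ms4a membrane proteins 4 were higher and none lower, with a median log2 fold change of 1.23. Ms4a6c was at 27.7 and 31.3 CPM in WT and at 94.3 and 107 CPM in CKO (log2 fold change 1.77, SE 0.13, adjusted p = 1.25e-05), and Ms4a6b rose from 14.6 and 23.5 CPM to 65.7 and 63.5 CPM (log2 fold change 1.76, SE 0.20, adjusted p = 0.000188). In these genes the 2 CKO libraries lay close together.

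In the lymphocyte genes CKO replicate 1 was the higher of the 2 CKO libraries. Of 8 Gimap GTPases, which control lymphocyte survival, 4 were higher and 8 had a log2 fold change above 0, with a median of 2.02. Gimap6 was at 17.2 and 15.8 CPM in WT, at 92.5 CPM in CKO replicate 1 and at 48 CPM in CKO replicate 2 (log2 fold change 2.09, SE 0.29, adjusted p = 0.00104). Of the 15 B cell markers 4 were higher. Without CKO replicate 1 the counts fell to 1 of 8 Gimap genes and 1 of 15 B cell markers, and without WT replicate 2 to 2 and 1. Without CKO replicate 2 the count of B cell markers was 10. The summed B cell level moved with these genes, and its part in them was not tested. The 15 T cell markers summed to 126.2 and 93.06 CPM in WT and to 112.7 and 96.48 CPM in CKO.

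**Figure D4:**
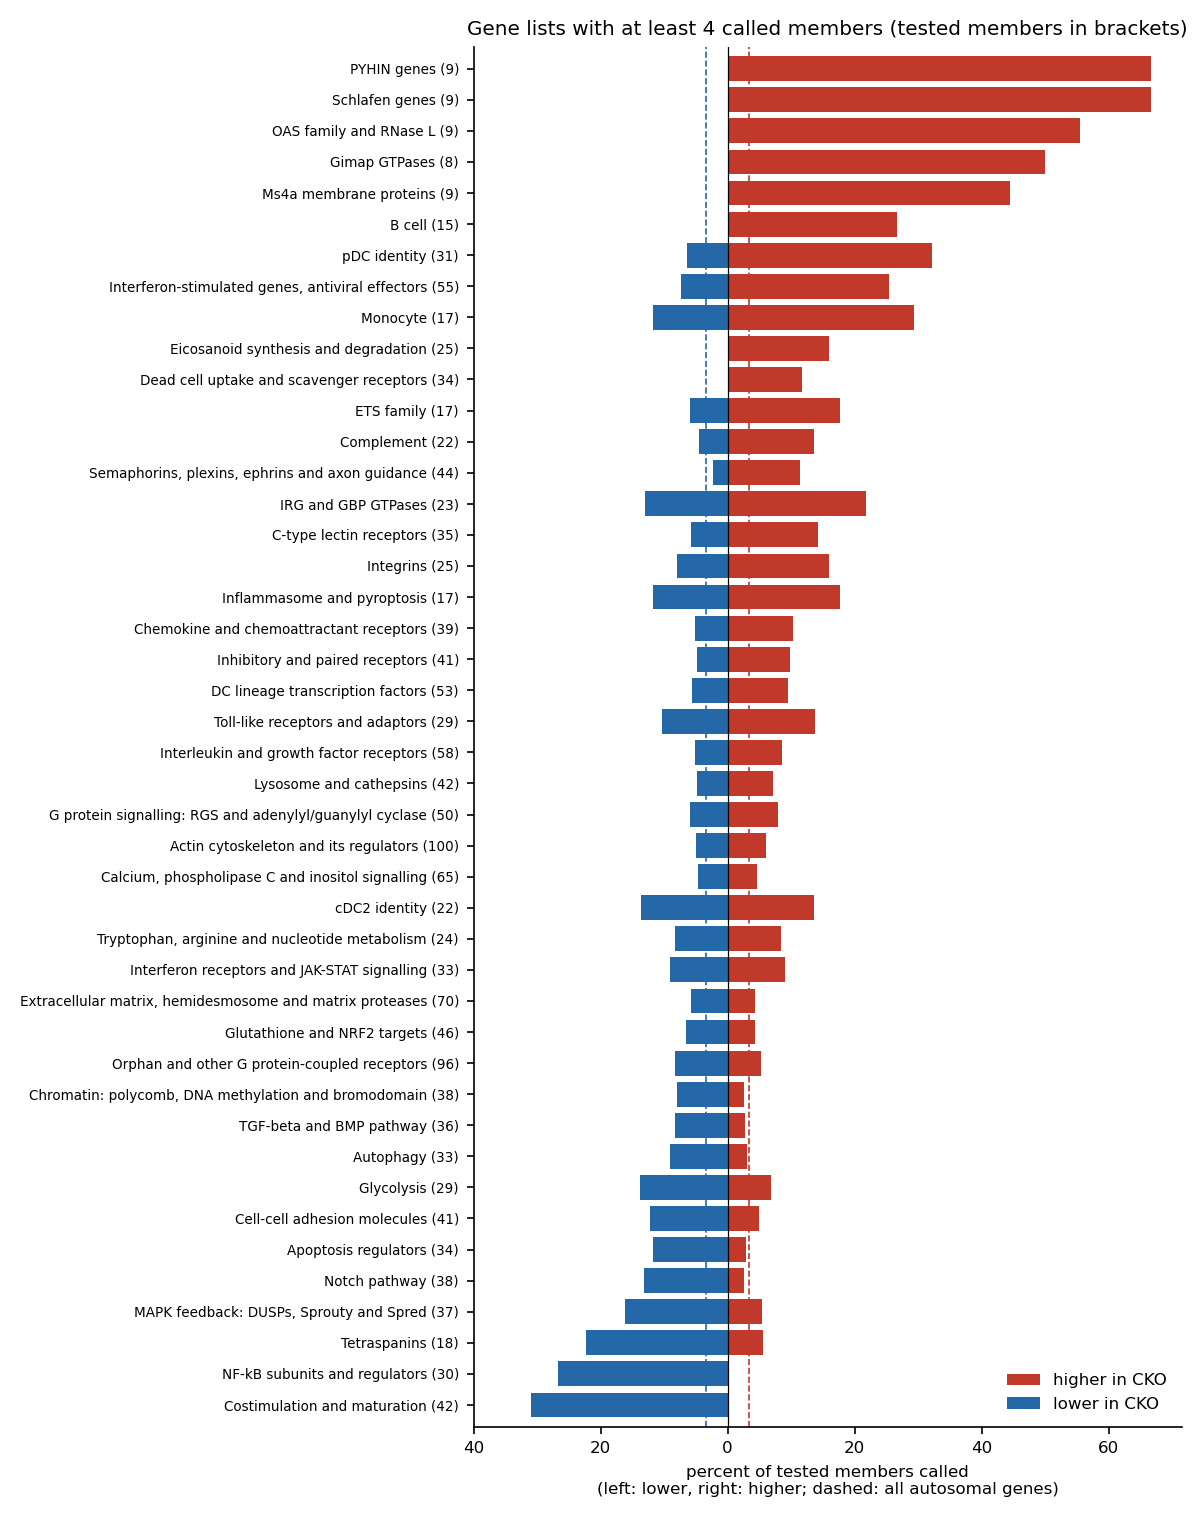
Percent of the tested members of each gene list called higher (red, right) or lower (blue, left) in CKO, for the lists with at least 4 called members, with dashed lines at 3.36% and 3.33% for all tested autosomal genes. The PYHIN and Schlafen lists lie at the top, with 6 of 9 members each, and the costimulation and maturation list at the bottom, with 13 of 42.

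Counts of other lists also moved by more than 1.5 times with 1 library. Without CKO replicate 1, lower genes numbered 2 each in the Notch, MAPK feedback, glycolysis, cell-cell adhesion and interferon-stimulated lists, 3 in the actin cytoskeleton list, 1 each in the lysosome, pDC and eicosanoid lists, and 0 in the integrin and monocyte lists. In the same fit, higher genes numbered 4 in the pDC list, 3 each in the monocyte, semaphorin, DC transcription factor and Notch lists, 2 each among IRG and GBP GTPases and interleukin receptors, and 1 in cell-cell adhesion. Without WT replicate 2, lower genes numbered 3 each in the Notch, cell-cell adhesion and actin cytoskeleton lists, 2 each in the MAPK feedback, tetraspanin and interferon-stimulated lists, 1 each in the lysosome, pDC and OAS lists, and 0 among integrins. In that fit, higher genes numbered 4 in the pDC list, 3 each in the monocyte, semaphorin and G protein-coupled receptor lists, 2 each among integrins and interleukin receptors, 1 in cell-cell adhesion, and 0 in the Notch and glycolysis lists. Without WT replicate 1, higher genes numbered 7 in the eicosanoid list, 5 in the lysosome list, 2 each among IRG and GBP GTPases, interferon regulatory factors, tetraspanins and the Notch and TGF-beta lists, and 1 in the maturation list, and lower genes numbered 2 in the semaphorin list and 1 in the monocyte list. Without CKO replicate 2, lower genes numbered 6 among DC transcription factors, 2 each in the tetraspanin, MAPK feedback and semaphorin lists, and 1 each in the pDC and eicosanoid lists, and higher genes numbered 2 among tetraspanins and 1 in glycolysis.

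Fold changes were ranked among called genes at a mean of at least 3 log2 CPM whose genotypes did not overlap. Below the 10 largest of these in each direction came genes without a common list. Among the higher ones were Tespa1, a signalling protein of lymphocytes, which rose 6.4-fold (5.92 and 4.19 CPM in WT against 29 and 35.7 CPM in CKO, adjusted p = 4.43e-05). Nqo2, a quinone reductase, rose 5.9-fold (24.8 and 9.4 CPM in WT against 94 and 107 CPM in CKO, adjusted p = 0.000589), and Emb, an immunoglobulin-type membrane protein, 5.66-fold (9.03 and 5.34 CPM in WT against 37.3 and 43.8 CPM in CKO, adjusted p = 1.25e-05). Slco3a1, an anion transporter, was among the largest gains in CPM, from 259 and 228 CPM to 514 and 767 CPM (adjusted p = 0.000382). Among the lower ones, Papss2, which makes the sulfate donor of the cell, fell 4.16-fold (88.4 and 93.1 CPM in WT against 20.1 and 23.6 CPM in CKO, adjusted p = 8.11e-05). Slc25a26, the mitochondrial carrier of S-adenosylmethionine, fell 4.1-fold (23.8 and 21.4 CPM in WT against 5.38 and 5.64 CPM in CKO, adjusted p = 0.00324). Loxl3, a lysyl oxidase, fell 3.52-fold (73.8 and 64.6 CPM in WT against 15.6 and 23.7 CPM in CKO, adjusted p = 0.0026). Separate genotypes were a condition of this ranking, so they add no support.

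Of 142 tested genes within 10 Mb of Etv6 on chromosome 6, 7 were higher and 6 lower (9.16%), against 6.67% of 12621 genes on the other autosomes, and this difference was not tested. Bcl2l14 (chr6:134396329-134438724), the next called gene after Etv6 (chr6:134035700-134270158), fell from 399 and 340 CPM to 155 and 166 CPM (log2 fold change -1.20, SE 0.18, adjusted p = 0.00193). Hebp1 fell from 46.1 and 55 CPM to 23.7 and 18.8 CPM (log2 fold change -1.25, SE 0.16, adjusted p = 0.000532) and was named after its value was seen. Clec2i, which was lower, and Cd4, which was higher, also lie within 10 Mb of Etv6 and are described below. Whether this position bears on their change was not tested.

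The response in Dec205 was compared with that in the other 3 subsets, each against its own WT libraries. In pDC, 1.46% of tested autosomal genes were higher and 0.36% lower. In Esamlo the shares were 0.443% and 0.0676%, and in Esamhi 0.653% and 0.173%. Of the 448 genes higher in Dec205, 356 were called in no other subset, and of the 444 lower ones 404. A call in 1 subset and not in another does not show a difference, so the difference was tested itself. Against the mean effect of the other subsets, the CKO effect in Dec205 was higher for 164 autosomal genes (1.23%) and lower for 227 (1.70%). Of the genes that rose in Dec205, 159 were among the former, and of those that fell, 179 were among the latter. Called in the same direction throughout, 9 genes rose in all 4 subsets, among them Col17a1, Itgax, Plcb4 and Pros1, and no gene fell in all 4. In Dec205 Itgax was not called without WT replicate 1 (adjusted p = 0.055), WT replicate 2 (0.158) or CKO replicate 2 (0.164).

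By family, the Schlafen genes had no call in pDC, Esamlo or Esamhi, and the effect was higher in Dec205 for 5 of 9. The effect was lower in Dec205 for 5 of 30 NF-kB genes and for 10 of 42 maturation genes, against 1.70% of all. Of the 9 PYHIN genes 4 were higher in pDC, and the effect was higher in Dec205 for 4. Of the 9 Ms4a genes these counts were 3 and 3, and of the 9 OAS genes also 3 and 3. Of the 55 interferon-stimulated genes, 10 were higher and 2 lower in pDC. For that list the effect was higher in Dec205 for 9 genes and lower for 4. Bcl2l14 fell by 1.20 on the log2 scale in Dec205 but rose by 2.06 in pDC (adjusted p = 0.00032), a difference from the mean of the other subsets of -1.84 (SE 0.22, adjusted p = 0.000765). Clec2i, a C-type lectin-related ligand, fell by 1.20 on the log2 scale in Dec205 and rose by 0.78 in pDC, 1.17 in Esamlo and 0.71 in Esamhi, a difference of -2.09 (SE 0.17, adjusted p = 6.26e-05). Cd4 rose in Dec205, from 6.53 and 12.8 CPM to 24.6 and 24.4 CPM, and fell by 1.06 in Esamhi, a difference of 2.06 (SE 0.26, adjusted p = 0.00103). Zfp217, a zinc finger repressor, fell by 1.63 in Dec205, with a difference of -1.79 (SE 0.25, adjusted p = 0.00181). Sepn1, a selenoprotein of the endoplasmic reticulum, rose by 2.15 in Dec205, with a difference of 2.11 (SE 0.30, adjusted p = 0.00249), and Cd300lf, an inhibitory lipid receptor, by 2.09, with a difference of 1.87 (SE 0.34, adjusted p = 0.0103).

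**Figure D5:**
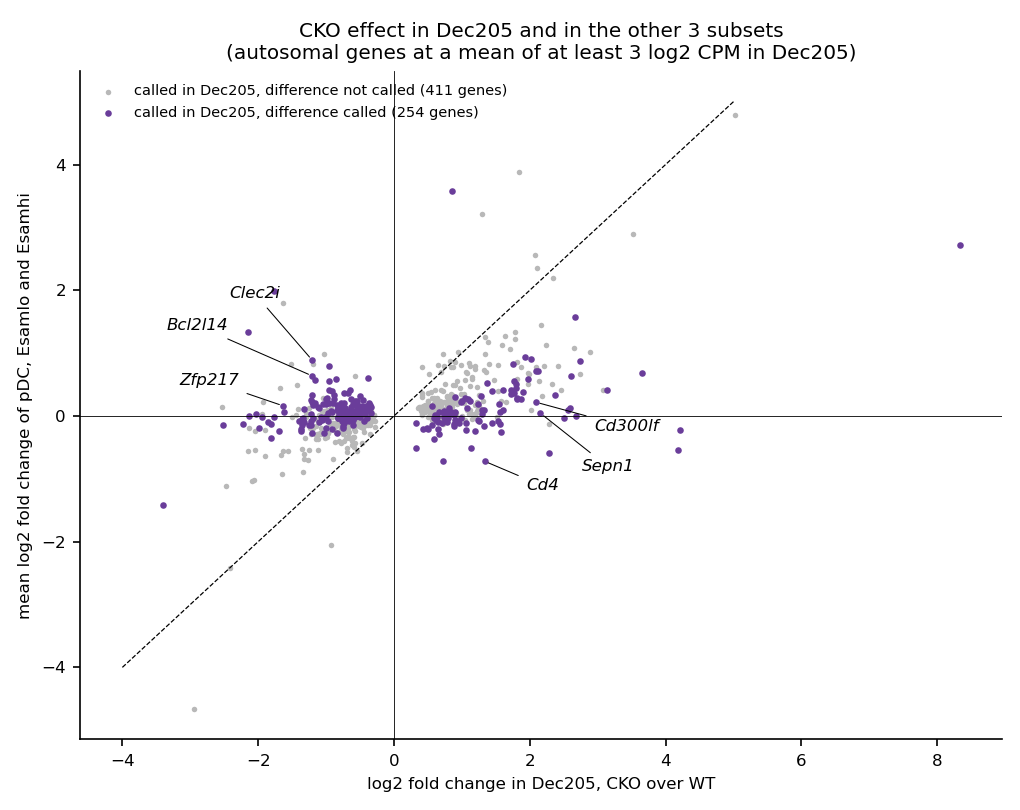
Log2 fold change of CKO over WT in Dec205 against the mean of the log2 fold changes in pDC, Esamlo and Esamhi, for the 665 called autosomal genes at a mean of at least 3 log2 CPM, with the 254 whose difference was called in purple and the dashed line at equal values. Most genes lie near 0 on the vertical axis. Only genes called in Dec205 are drawn, so their distance from 0 on the horizontal axis follows from that choice. Larger changes on that axis than on the vertical one also follow from it in part.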

How the data were processed

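RNA was measured by sequencing in sorted spleen DCs, and each library was made with the SMART-Seq v4 kit, per the labels' protocols. That kit does not mark strand and carries no molecular identifiers, so reads of a gene and its antisense partner cannot be told apart, and counts are of reads. Per the submitters' processing notes, bcl2fastq, Trimmomatic (version 0.36), Bowtie2 (version 2.2.9) and the genome build mm10 were used. The counting tool and its annotation are not stated in the labels or the file header. The authors deposited 1 table of raw counts per gene for all 16 libraries, with no normalization, and 0 columns of it were left out. It holds 24116 genes, of which 22993 are on autosomes. Totals were 14434287 to 20709265 counts per library.

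From these counts, TMM factors, a filter by group (filterByExpr) and the quasi-likelihood test were computed with edgeR (version 4.0.16, R version 4.3.3) over all 16 libraries with 1 coefficient per subset and genotype, which leaves 8 residual degrees of freedom. The two-sided p-values were adjusted by the Benjamini-Hochberg method over all 13790 tested genes. A difference between subsets is a contrast of their CKO effects in the same model. A gene without any count in 1 genotype was set against a floor of 3 counts over that group. Gene positions and promoters are from RefSeq (GRCm38.p6).

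The members and gene lists were chosen with earlier results of these data known. Genes are named by rule: ranks 11 to 25 by fold change in each direction, up to 4 called and 2 uncalled members of each list, the 10 largest differences in CPM in each direction, up to 6 in each direction that differ from the other subsets, and the label markers with Etv6. Others are marked as named after their values were seen. The ranks by fold change cover only called genes with an established symbol, separate genotypes and a mean of at least 3 log2 CPM in Dec205. Alternatives were DESeq2 (version 1.42.0), other scalings and filters, each library left out, the 4 Dec205 libraries alone, and the replicate number as a block. Some items are not reported here.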

Additional observations from a re-analysis of the deposited data

Results flagged for a closer look

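The CKO effect in Dec205 differed from the mean of the other 3 subsets, by edgeR's test of that difference itself, for 164 autosomal genes in the higher direction and 227 in the lower direction. Among the named genes, the log2 difference was 2.11 for Sepn1, 2.06 for Cd4 and 1.87 for Cd300lf. It was -2.09 for Clec2i, -1.84 for Bcl2l14 and -1.79 for Zfp217. Of these genes Cd4, Clec2i and Bcl2l14 lie within 10 Mb of Etv6, and the part of this position was not tested.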

How the results depend on the processing

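Against 448 higher and 444 lower autosomal genes, DESeq2 called 799 and 839, and the model with only the 4 Dec205 libraries 74 and 50. Leaving out 1 library at a time gave 311 to 755 higher and 251 to 539 lower genes. For the difference from the mean of the other subsets (164 higher and 227 lower), DESeq2 called 424 and 546, and leaving out 1 library gave 151 to 449 and 171 to 365. The other scalings and filters kept these counts within 1.5 times. The balance did shift: scaling to library size only gave 501 higher and 340 lower genes in Dec205. Of those calls 59.6% were higher, against 50.2% in the main model. Clec9a changed sign when libraries were left out, with log2 fold changes from -0.165 (without CKO replicate 2) to 0.397. Rbpj, not called here, was called with DESeq2 and with scaling to library size only, Batf3 and Fos with DESeq2, and Irf1 lost its call with scaling to library size only. With only the 4 Dec205 libraries in the model, higher genes numbered 2 in the Ms4a list, 1 in the pDC list and 0 in the Gimap list. Lower genes in that model numbered 8 in the maturation list and 0 in the MAPK feedback list. The IRG and GBP GTPases then had 2 higher and 0 lower genes. The causes were not tested. The replicate number does not pair the libraries: the deviations of same-numbered libraries correlated at 0.0169 in Dec205. With it as a block over all libraries, 472 genes were higher and 454 lower, and as a block within each subset, 361 and 341. BC094916, Birc3 and Irf7 were not called with the block within each subset, nor Ifit3b without a filter. For the difference from the other subsets, the block gave 174 and 232 over all libraries and 110 and 161 within each subset. Depth limits the genes under 3 log2 CPM most, where the median standard error was 0.613 or more.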
